A study of Mus musculus with 2 samples.

Results

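The genes described here encode the nuclear part of the respiratory chain and ATP synthase, in mouse embryonic stem cells with and without Adriamycin. They were chosen by gene symbol: Ndufa, Ndufb, Ndufc, Ndufs or Ndufv followed by a number (complex I), Sdha to Sdhd (complex II), Uqcr (complex III), Cox4 to Cox8 followed by a letter (complex IV) and Atp5 (complex V), leaving out symbols marked as pseudogenes. This gave 89 of the 55414 gene identifiers in the tables, of which 80 had a mean of at least 1 CPM (reads of a gene over all reads, scaled to 1e+06) over both libraries and are called measured here. Complex I had 40 genes with 37 measured, complex II 4 with 4, complex III 8 with 8, complex IV 19 with 14 and complex V 18 with 17.

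The cells were of the wild-type mouse embryonic stem cell line R1E, kept in medium with fetal bovine serum and leukemia inhibitory factor (LIF), which holds such cells undifferentiated. The untreated library was labelled 0 h and had no treatment. For the other library, Adriamycin was added at 0.5 µM and left on for 8 h. This drug, also called doxorubicin, is an anthracycline that intercalates into DNA and traps topoisomerase II on it. Total RNA was extracted with TRIzol and sequenced as RNA-seq libraries. There was 1 library for each condition, so no difference below has a replicate check and no p-value is given, and Adriamycin cannot be told apart from the hours in culture.

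The respiratory chain sits in the inner mitochondrial membrane. Complexes I and II pass electrons from NADH and succinate to ubiquinone, complex III passes them on to cytochrome c, and complex IV reduces oxygen, while complexes I, III and IV pump protons. Complex V, the ATP synthase, lets the protons flow back and makes ATP. Most subunits are encoded in the nucleus, and a small core of complexes I, III, IV and V is encoded by mitochondrial DNA. Pluripotent stem cells are known for relying strongly on glycolysis while keeping the respiratory chain expressed.

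The untreated library held 41820999 reads assigned to genes and the Adriamycin library 38561292. Of the stem cell markers, 10 of 10 were measured, and their summed level in TPM (transcripts scaled to 1e+06 in a library, a level per exonic length) was 15110 untreated and 10900 with Adriamycin. Of the 10, 5 were lower by 2-fold or more, Zfp42 and Nanog among them, against 6.95% of all 14871 measured genes. With libraries scaled by total counts, 2 of 10 were, against 726 of the 14871. Fibroblast markers were measured for 5 of 8, with a sum of 35.2 TPM untreated and 56.9 TPM with Adriamycin, and Col3a1, Dcn and Lum had 0 reads in both libraries. Col1a1 had 214 and 1295 reads, a ratio of 2.57, and the other 4 measured had a highest ratio of 0.58 (Pdgfrb) and a lowest of −0.16 (Pdgfra). Endoderm markers were measured for 4 of 4, with a median log2 ratio of 0.03. The part of these marker levels in the results below was not tested. A bulk library cannot tell fewer cells of a type from less RNA in each cell. All 13 mitochondrially encoded subunit genes, mt-Nd1, mt-Co1 and mt-Atp6 among them, were listed at 0 reads in both libraries, as were all 37 genes of the mitochondrial chromosome, so the tables give no level for that part of the complexes.

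The ratios of the respiratory chain genes lay close together, in a narrower range than those of all genes. Of the 80 measured members, 1 (1.25%) had a level 2-fold or more above the untreated one, where 17.0% of the 14871 measured genes did, and 0 were lower by 2-fold or more, against 6.95% of all measured genes. At 1.5-fold, 2 members were higher and 1 was lower, against 25.7% and 18.9% of all measured genes, and the other 77 members stayed within 1.5-fold. The middle 50% of members spanned 0.39 log2 units, from −0.23 to 0.15, and the middle 50% of all measured genes spanned 1.07, from −0.46 to 0.61. A narrow range was not particular to the respiratory chain. In other mitochondrial lists described below, the middle 50% spanned 0.39 (TCA cycle), 0.42 (mitochondrial ribosome), 0.44 (coenzyme Q synthesis) and 0.51 (import and inner structure). It spanned 1.48 for the regulators of biogenesis. The median log2 ratio was −0.07 for the members and −0.03 for all measured genes.

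The members were more abundant than most genes, with a median of 211.5 TPM untreated against 18.7 TPM over all measured genes. The comparison was therefore repeated within an abundant band, 25 CPM or more on average, which was added after seeing the data. There, 9.03% of 7297 genes were higher by 2-fold or more and 6.29% lower, and 1 and 0 of the 69 members were. At 1.5-fold, 15.5% of these genes were higher and 21.3% lower, against 2 and 0 of the 69 members. The middle 50% spanned 0.36 for the members and 0.77 for all genes of the band. Their medians were −0.05 and −0.18, so the members lay slightly below the middle of all measured genes and slightly above the middle of abundant genes.

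**Figure D1:**
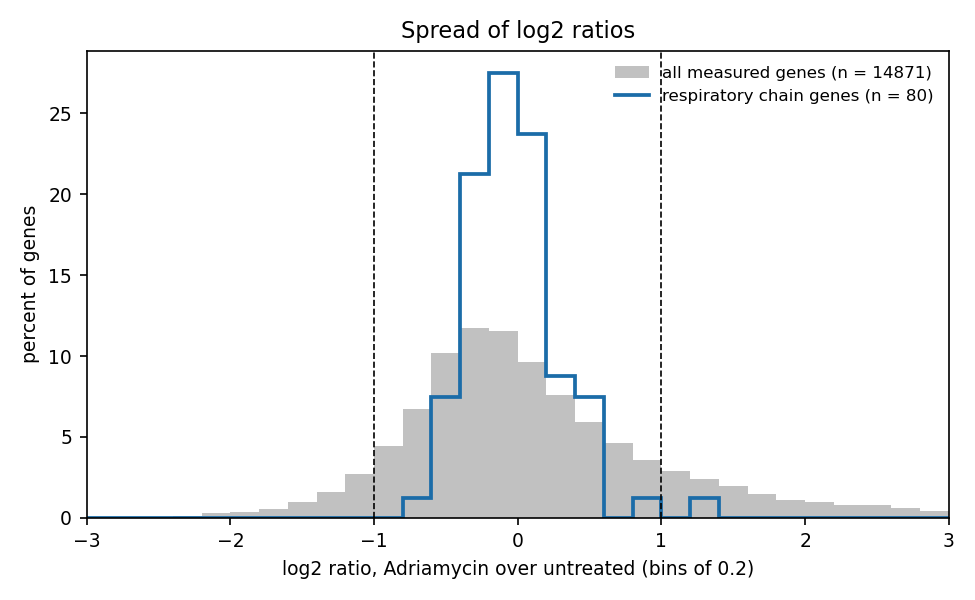
The horizontal axis is the log2 ratio of the Adriamycin over the untreated library in bins of 0.2, the vertical axis the percent of genes, for all 14871 measured genes (grey) and the 80 measured respiratory chain genes (blue line); dashed lines mark 2-fold. The members gather around 0, with 1 of them past the line on the right and 0 past the line on the left.

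As a share of all reads assigned to genes, the members made up 1.33% of the untreated library and 1.37% of the Adriamycin library. The ratios here are scaled by edgeR's trimmed mean of M values (TMM). The choice of scaling moves every log2 ratio by the same amount: the median of all measured genes lay at −0.03 with TMM, at 0.12 with total counts and at −0.15 with upper-quartile factors. Counts by position below are therefore given against the median of all measured genes, which no scaling changes, while the side of 0 of a ratio near 0 does depend on the scaling. Of the 7297 genes of the abundant band, 4405 lay below this median. An even split is therefore not the yardstick for lists of abundant genes. Intervals beside ratios are exact 95% counting intervals (Clopper-Pearson on the split of a gene's reads between the libraries), which cover counting error only. The interval excluded 0 for 65 of the 80 members, and for 58 with the counts divided by 2, as mates of a read pair appear to have been counted separately. These 2 counts depend on read depth and scaling and have no all-gene share beside them, so they do not count changed genes. The median half-width of the members' intervals was 0.070. Total counts moved every ratio by 0.145 and upper-quartile factors by −0.122, both larger in size.

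By complex, complex IV had the highest median and complex II the lowest. The median log2 ratio was −0.01 for complex I, −0.31 for complex II, −0.01 for complex III, 0.18 for complex IV and −0.18 for complex V. Without members that have a near-identical copy elsewhere, the complex III median was −0.27, over its core and Rieske subunits, which turned it from above to below the median of all members. Against the median of all measured genes, 20 of the 37 measured complex I genes lay above it, as did 0 of 4 in complex II, 4 of 8 in complex III, 8 of 14 in complex IV and 4 of 17 in complex V. The ranges overlapped: complex I ran from −0.46 (Ndufs1) to 0.80 (Ndufc2), complex III from −0.45 (Uqcrc2) to 0.28 (Uqcr11), complex IV from −0.40 (Cox4i2) to 1.33 (Cox6b2) and complex V from −0.77 (Atp5g2) to 0.23 (Atp5d). Complex II was the tightest, from −0.43 (Sdhb) to −0.20 (Sdhc), and each of its 4 genes lay below the medians of complexes I, III, IV and V. The complex V median was the same, to 2 decimals, as that of all genes in the abundant band.

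**Figure D2:**
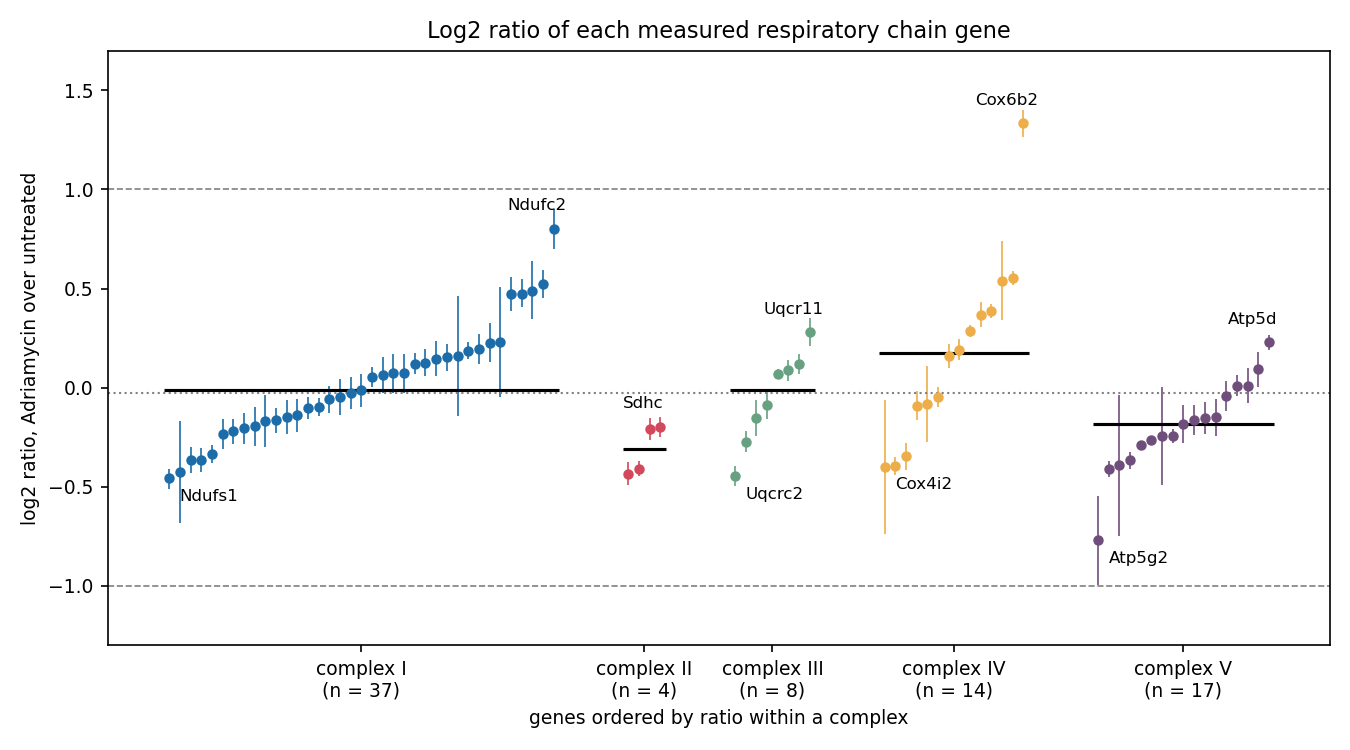
Each point is a measured gene with its log2 ratio (Adriamycin over untreated, vertical axis) and its exact 95% counting interval, ordered by ratio within complexes I to V; black bars are medians, the dotted line the median of all measured genes and dashed lines 2-fold. Cox6b2 in complex IV is the 1 gene past a 2-fold line, and the 4 genes of complex II all lie below the dotted line.

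Summed over its genes, the level per length was higher with Adriamycin for complexes I, III and IV and lower for complexes II and V. Complex IV summed to 6805 TPM untreated and 9066 TPM with Adriamycin, and complex V to 7730 and 7187 TPM. Complex I gave 6935 and 7702 TPM, complex III 3241 and 3531 TPM, and complex II 1129 and 987.5 TPM. Complex V was thus the most abundant in the untreated library and complex IV in the Adriamycin library. TPM are shares of a library and are not TMM-scaled, so their ratios run higher than the TMM ratios of the same genes, and for complexes I and III the median TMM ratio lay just below 0.

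**Figure D3:**
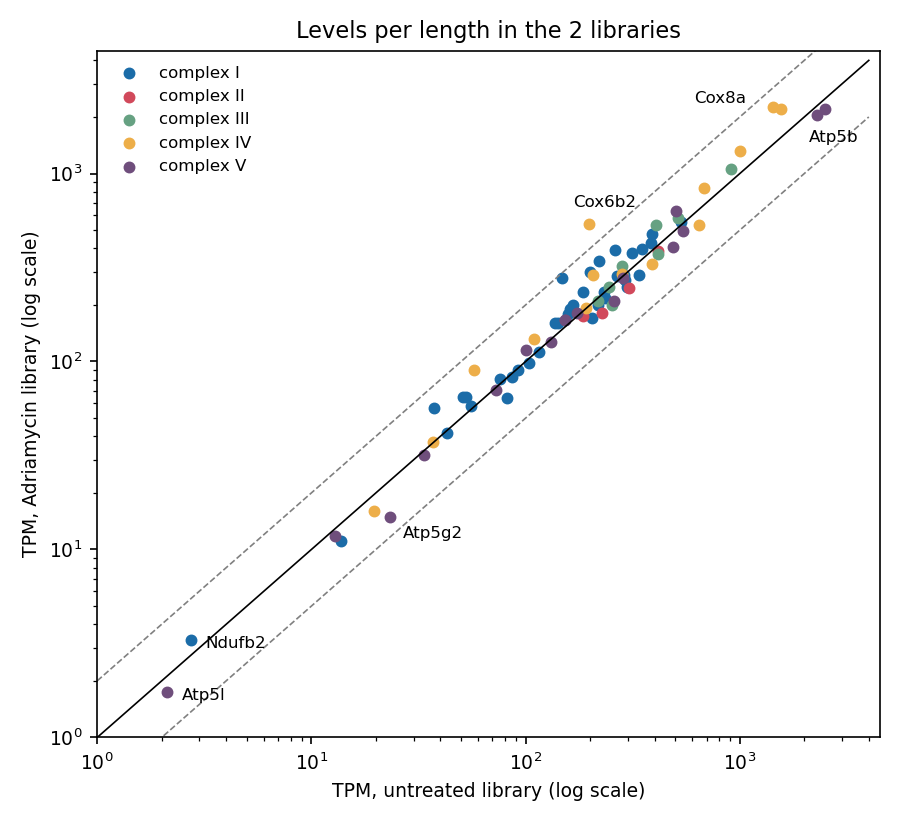
Both axes are levels in TPM on log scales, untreated (horizontal) and Adriamycin (vertical), with a point for each measured respiratory chain gene coloured by complex; the diagonal marks equal levels and dashed lines 2-fold. Most points follow the diagonal from 2.12 TPM (Atp5l) to 2508 TPM (Atp5b) untreated, and Cox6b2 stands above it.

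The 1 gene past 2-fold was Cox6b2, which encodes the testis isoform of a complex IV subunit, the partner of the broadly expressed Cox6b1. Cox6b2 had 2459 reads untreated and 6316 with Adriamycin, a log2 ratio of 1.33 (1.27 to 1.40), or 2.52-fold higher. With the counts divided by 2, the interval ran from 1.24 to 1.43. Per length, its level was 198.5 TPM untreated and 539.4 TPM with Adriamycin. Cox6b1 had 5370 and 6256 reads, a ratio of 0.19 (0.14 to 0.24), and 678.3 and 836.1 TPM. Of the summed TPM of this isoform pair, Cox6b2 held 22.6% untreated and 39.2% with Adriamycin. Per length, Cox6b1 was thus the more abundant isoform in both libraries, by a smaller margin with Adriamycin. In the Adriamycin library this order rests on the annotated exonic lengths, 1108 bases for Cox6b2 and 708 for Cox6b1. By reads alone, Cox6b2 had slightly more there (6316 against 6256).

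Cox6b2 lies at chr7:4754791-4756093 on the minus strand (GRCm39, from the deposited table). Its coding sequence had no near-identical copy in another gene and its exons overlapped no other gene. Its nearest neighbour, Fam71e2, lies on the same strand and had 16 and 39 reads, under the filter, with a ratio of 1.23 (0.39 to 2.20). Within 50000 bases, Kmt5c had 6680 and 8046 reads (0.24). Il11 had 18 and 97 reads (2.37) and passed the filter only through the Adriamycin library. Ube2s had a ratio of −1.04, so genes around Cox6b2 lay on both sides of 0. The part of the locus in the Cox6b2 value was not tested. Other testis germ cell markers did not show a like ratio: 3 of 5 were measured, their ratios lay between −0.27 and −0.01, and their sum was 136.1 TPM untreated and 139.6 TPM with Adriamycin. Acrv1 had 0 reads in both libraries, and Prm1 had 0 and 3.

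The promoters of Cox6b2, of its partner Cox6b1 and of Cox6a1, the most abundant complex IV gene in the untreated library, are shown to compare the isoform with genes of the same complex that are expressed in all tissues. Each is the RefSeq sequence from 250 bases before to 50 bases after the gene start (GRCm38.p6), 5′ to 3′ along the gene: chr7:4753045-4753344 for Cox6b2, chr7:30626065-30626364 for Cox6b1 and chr5:115348909-115349208 for Cox6a1, all on the minus strand. Capitals mark the motifs searched on both strands, which are listed with the promoter results.
Cox6b2: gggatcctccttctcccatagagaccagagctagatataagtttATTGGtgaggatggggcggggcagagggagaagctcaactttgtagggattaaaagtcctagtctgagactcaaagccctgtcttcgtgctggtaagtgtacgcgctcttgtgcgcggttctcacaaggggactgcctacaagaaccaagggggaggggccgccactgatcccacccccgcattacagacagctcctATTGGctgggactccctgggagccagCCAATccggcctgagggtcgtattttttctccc
Cox6b1: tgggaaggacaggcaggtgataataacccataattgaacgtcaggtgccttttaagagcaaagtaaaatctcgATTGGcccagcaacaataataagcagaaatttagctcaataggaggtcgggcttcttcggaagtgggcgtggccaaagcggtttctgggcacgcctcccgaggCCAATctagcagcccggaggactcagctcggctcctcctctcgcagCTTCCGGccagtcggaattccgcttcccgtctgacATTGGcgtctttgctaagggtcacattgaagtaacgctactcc
Cox6a1: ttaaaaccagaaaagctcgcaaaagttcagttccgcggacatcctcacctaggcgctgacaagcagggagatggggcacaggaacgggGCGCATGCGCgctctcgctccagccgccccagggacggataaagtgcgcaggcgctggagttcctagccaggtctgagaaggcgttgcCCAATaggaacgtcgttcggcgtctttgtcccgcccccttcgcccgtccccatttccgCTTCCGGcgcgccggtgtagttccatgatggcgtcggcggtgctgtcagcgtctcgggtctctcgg
Among the motifs searched, the Cox6b2 window held only CCAAT, as CCAAT or its reverse complement ATTGG. The Cox6b1 window held the ETS motif CCGGAAG (as CTTCCGG) as well, and the Cox6a1 window held the full NRF1 motif (its first run of capitals), the ETS motif and CCAAT.

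Among the other complex IV genes, the abundant ones with the highest ratios were Cox8a, Cox6a1, Cox5b and Cox4i1, all broadly expressed structural subunits. Cox8a had 9893 and 14806 reads, a ratio of 0.55 (0.52 to 0.59), and 1429 and 2263 TPM, the highest level of any member with Adriamycin. Cox8a lies on chromosome 19, whose 488 measured genes had a median ratio of 0.29. Of these, 125 (25.6%) were higher by 2-fold or more and 19 (3.89%) lower, against 17.0% and 6.95% of all measured genes. The other 3 members on chromosome 19 had ratios of −0.23 (Ndufs8), −0.10 (Ndufv1) and −0.05 (Ndufb8). Among genes named below, Mrpl16 (1.58), Esrra (1.12), Sdhaf2 (0.76) and Pprc1 (−1.05) also lie on it. The part of the chromosome in the Cox8a value and in these values was not tested.

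Cox6a1 had 12225 and 16302 reads, a ratio of 0.39 (0.35 to 0.42). Cox4i1, whose product is a regulatory subunit that binds ATP, had 17290 and 21493 reads, a ratio of 0.29 (0.26 to 0.31). Cox5b had 3661 and 4822 reads, a ratio of 0.37 (0.31 to 0.43). These intervals lay apart from those of Cox7b and Cox7a2, small subunits at the other end of the same complex. Cox7b had 8780 and 6803 reads, a ratio of −0.40 (−0.44 to −0.35). Cox7a2 had 4085 and 3275 reads, a ratio of −0.35 (−0.41 to −0.28). The 11 broadly expressed subunits of complex IV thus ran from −0.40 to 0.55 with a median of 0.16, 6 above and 5 below the median of all measured genes.

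The tissue isoforms of complex IV were mostly at low levels. Of 7, only Cox6b2, Cox7a1 and Cox4i2 were measured. Cox7a1, the heart and skeletal muscle isoform, had 345 and 511 reads, a ratio of 0.54 (0.34 to 0.74). Within its family, Cox7a1 held 9.07% of the summed TPM untreated and 14.8% with Adriamycin, Cox7a2 held 60.9% and 53.6%, and Cox7a2l, which assembles supercomplexes, held 30.1% and 31.6%. Muscle markers were measured for 5 of 8, with a sum of 15.1 TPM untreated and 24.3 TPM with Adriamycin. Of these, 4 had ratios above 0: Ckm (10 and 229 reads), Myh7 (29 and 285 reads), Ttn (0.96) and Myh6 (0.64). Ckm and Myh7 passed the filter only through the Adriamycin library. Tnni3 had a ratio of −1.04 and was the 1 measured marker below 0. Under the filter, Tnnt2 had 9 and 23 reads, Mb 8 and 35 and Actc1 9 and 0. The part of the muscle markers in the Cox7a1 value was not tested.

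Cox4i2, the isoform of lung and of low oxygen, had 172 and 133 reads, a ratio of −0.40 (−0.74 to −0.06), and held 1.92% and 1.20% of the Cox4 TPM. The other isoforms were under the filter. Cox6a2, the heart and muscle isoform, had 0 and 7 reads, and Cox8b, also of heart and muscle, had 0 and 2. A count of 0 allows up to 3 reads, or 0.0754 CPM in the untreated library. The testis isoforms Cox7b2 and Cox8c had 10 and 17 reads and 23 and 15 reads. Cox8a held 99.7% of the Cox8 TPM untreated and 99.8% with Adriamycin, and Cox7b held 99.8% and 99.4% of the Cox7b and Cox7b2 sum.

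In complex I, the core subunits that carry electrons lay below the accessory subunits. The grouping by role was made after values were seen. All 7 nuclear-encoded core subunits, of the NADH-oxidising and the ubiquinone-reducing modules, lay below the median of all measured genes. Their median ratio was −0.23, and they ran from −0.46 to −0.10. The 27 measured accessory subunits had a median of 0.07, and 17 of them lay above the median of all measured genes and 10 below. The ranges overlapped, since the accessory subunits ran from −0.42 to 0.80.

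Ndufs1, the large iron-sulfur subunit of the core, had 7389 and 5483 reads, a ratio of −0.46 (−0.51 to −0.41), the lowest in complex I. Ndufv2 had 4901 and 3883 reads (−0.36) and Ndufs8 3129 and 2716 reads (−0.23). Ndufv1, the FMN-binding subunit that takes electrons from NADH, had 8458 and 8057 reads, a ratio of −0.10 (−0.14 to −0.05). The core subunits therefore differed among themselves by more than their counting intervals, with Ndufs1 farther down than Ndufv1, its partner in the same module.

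Among the accessory subunits, Ndufc2, a subunit of the membrane arm, was highest, with 1246 and 2214 reads and a ratio of 0.80 (0.70 to 0.90). Its partner Ndufc1 had 1741 and 1550 reads, a ratio of −0.20 (−0.30 to −0.10), below the median of all measured genes. Ndufa11 had 2700 and 3949 reads (0.52) and Ndufa12 had 652 and 934 reads (0.49), each with 1 near-identical copy elsewhere in the genome. Ndufa13 had 2795 and 3961 reads (0.47) and Ndufb6 had 1929 and 2731 reads (0.47). Exons of Tssk6 overlapped 30.0% of the Ndufa13 exon bases and those of Smim27 39.0% of the Ndufb6 exon bases. Reads there cannot be given to 1 gene and could have been lost from the counts. Ndufc2 had neither a copy nor an overlap.

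The lowest accessory subunits were Ndufb4, with 295 and 224 reads (−0.42) and 2 near-identical copies, and Ndufb10, with 4036 and 3196 reads (−0.36). Ndufa2, with 532.4 and 551.5 TPM, and Ndufa7, with 389.1 and 477.7 TPM, had the highest levels in complex I and ratios of −0.06 and 0.19. Ndufa4, which is named for complex I and is known to be a complex IV subunit, had 5913 and 6259 reads, a ratio of 0.05. Its paralog Ndufa4l2 had 1941 and 2067 reads, a ratio of 0.06, and held 29.3% and 29.4% of the summed TPM of the pair, an almost equal split in the libraries. Ndufs5, an accessory subunit, was under the filter with 31 and 16 reads. It has 1 near-identical copy, to which reads could have been lost, so its low count does not show that the gene is silent. The remaining complex I members under the filter were Ndufb4c (4 and 1 reads) and Ndufa11b (4 and 6 reads), both typed as processed pseudogenes in the annotation used for names, as were the measured Ndufs6b and Cox6c2, which had 6 and 6 reads and was under the filter in complex IV.

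Complex II, succinate dehydrogenase, is the 1 complex with no subunit encoded in mitochondrial DNA and it is also an enzyme of the TCA cycle. The catalytic head lay lower than the membrane anchors. Sdha, the flavoprotein, had 13942 and 10709 reads, a ratio of −0.41 (−0.45 to −0.37), and 302.2 and 245.6 TPM. Sdhb, the iron-sulfur subunit, had 5696 and 4296 reads, a ratio of −0.43 (−0.49 to −0.38). The anchors had 6758 and 6006 reads for Sdhc, a ratio of −0.20 (−0.25 to −0.15), and 5686 and 5014 reads for Sdhd, a ratio of −0.21 (−0.26 to −0.15). The intervals of the head and anchor subunits did not overlap. None of these 4 genes had a near-identical copy or an exon overlap.

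The TCA cycle list gave values near those of complex II: 18 of 18 genes were measured, with a median of −0.31, and 17 lay below the median of all measured genes. None passed 2-fold. The lowest were Pdha1, the pyruvate dehydrogenase subunit at the entry to the cycle, with 12371 reads untreated and a ratio of −0.92, and Idh3a, of isocitrate dehydrogenase, at −0.67. The complex II assembly factors lay above the median of all measured genes, with a median of 0.58 over 4 of 4 measured. Sdhaf1 had 148 and 318 reads, a ratio of 1.07, and was the 1 of them past 2-fold (0.95 with upper-quartile factors). Sdhaf2, which attaches the flavin to Sdha, had a ratio of 0.76.

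In complex III, the core and Rieske subunits had a median of −0.27 over 3 genes and the small accessory subunits a median of 0.09 over 5. Uqcrc2, a core protein, had 7206 and 5394 reads, a ratio of −0.45 (−0.50 to −0.39). Uqcrfs1, the Rieske iron-sulfur protein that passes electrons toward cytochrome c, had 6347 and 5353 reads, a ratio of −0.27 (−0.33 to −0.22). Uqcrc1, the other core protein, did not follow Uqcrc2: it had 23765 and 25439 reads, a ratio of 0.07 (0.04 to 0.10). Exons of another gene overlapped 19.7% of the exon bases of Uqcrc2 and none of those of Uqcrc1.

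The accessory subunits Uqcr11 (2903 and 3591 reads, 0.28), Uqcr10 (5923 and 6563 reads, 0.12) and Uqcrq (5787 and 6269 reads, 0.09) lay above the median of all measured genes, and Uqcrb (2122 and 1945 reads, −0.15) and Uqcrh lay below it. Uqcr10 was the most abundant complex III gene, at 907.1 and 1063 TPM. All 5 accessory subunits had at least 1 near-identical copy and the 3 core and Rieske subunits had none.

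In complex V, 13 of 17 measured genes lay below the median of all measured genes, and the F1 head divided by subunit. Atp5b and Atp5a1, the catalytic beta and alpha subunits, were the most abundant members in the untreated library. Atp5b had 118801 and 99223 reads, a ratio of −0.29 (−0.30 to −0.28), and 2508 and 2216 TPM. Atp5a1 had 80258 and 68208 reads, a ratio of −0.26 (−0.28 to −0.25), and 2290 and 2059 TPM. Atp5c1, the gamma subunit of the central stalk, had 10423 and 8241 reads, a ratio of −0.37.

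The other central stalk subunits lay above the median of all measured genes. Atp5d, the delta subunit, had 10841 and 12941 reads, a ratio of 0.23 (0.19 to 0.27), and Atp5e, the epsilon subunit, had 1973 and 2145 reads, a ratio of 0.09 (0.00 to 0.18). The 5 genes of the F1 head and central stalk held 222296 of the 554620 untreated reads of all members.

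The 4 measured peripheral stalk genes lay below the median of all measured genes, from Atp5f1 at −0.41 (11918 and 9148 reads) to Atp5h at −0.04 (2845 and 2819 reads). Exons of other genes overlapped 47.9% of the exon bases of Atp5o, and a second identifier with the symbol Atp5o had 0 reads in both libraries. The c ring through which protons pass is encoded by 3 genes for the same mature protein. By counted reads Atp5g3 was the main one, with 13179 and 11360 reads (−0.24) and 90.5% and 91.4% of the family's TPM. Atp5g1 had 1841 and 1652 reads (−0.18) and 5 near-identical copies, and Atp5g3 had 0 copies. Atp5g2 had 438 and 262 reads, a ratio of −0.77 (−0.996 to −0.545), the lowest of all members. Atp5g2 has 4 near-identical copies and held 3.92% and 2.74% of the family's TPM. Reads of Atp5g1 and Atp5g2 could have been lost to their copies, so the shares could be too high for Atp5g3.

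Of the other membrane subunits, Atp5l, with 153 and 119 reads (−0.39), had 17 near-identical copies and the lowest level of all measured members. Atp5mpl (2082 and 2137 reads, 0.01) and Atp5j2 (5641 and 5786 reads, 0.01) were close to equal in the libraries. Over all complexes, 35 measured members had a near-identical copy and 28 an exon overlap, where the counting could have split or lost reads. The medians were −0.04 with a copy and −0.10 without, and −0.08 with an overlap and −0.06 without, so these classes differed little as groups.

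What the members shared that their symbols did not choose was short gene length. Their median exonic length was 1578 bases against 4151 over all measured genes, and within the members shorter genes had higher ratios. Spearman's rho of ratio and exonic length across the 80 members was −0.40, and −0.01 across all 14871 measured genes. All points come from the same pair of libraries and are not independent replicates. The 19 members under 1000 bases had a median ratio of 0.15 and the 10 members of 4000 bases or more a median of −0.24. Over all measured genes the medians of these bands were −0.16 and −0.05, in the opposite order. Within the abundant band the order was the same as in the members over a smaller range: all genes under 1000 bases had a median of −0.06 and those of 4000 bases or more a median of −0.19, with a rho of −0.02 over 7297 genes and of −0.41 over the 69 members. Whether the members differ from other abundant genes in this order was not tested. Core subunits of complex I were longer (median 2178 bases) than its accessory subunits (1251 bases), so role and length go together here and cannot be told apart. The same holds for complex and length, as given with the medians by complex.

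**Figure D4:**
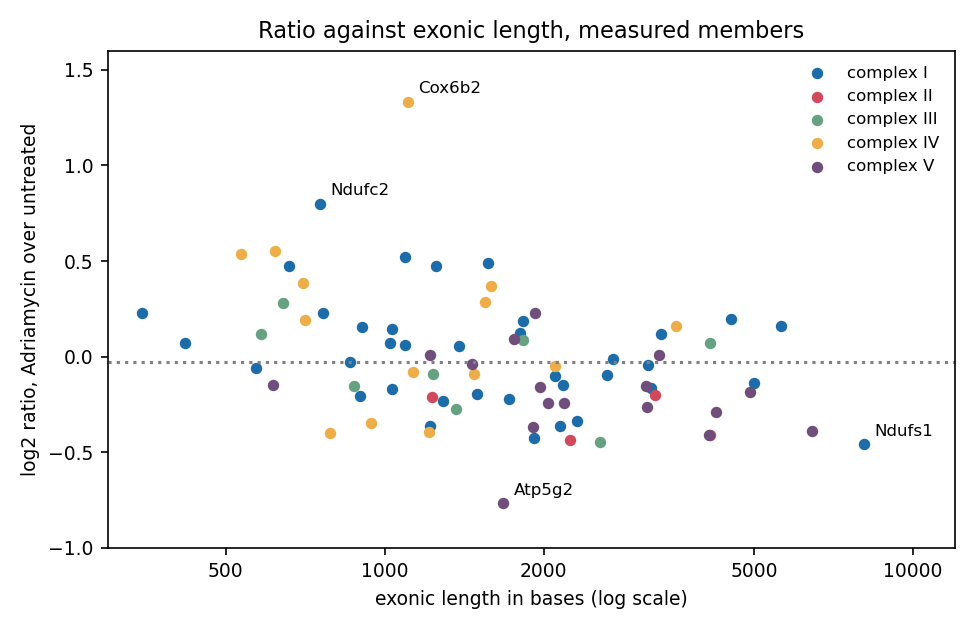
Each point is a measured respiratory chain gene, with its exonic length in bases on a log axis (horizontal) and its log2 ratio, Adriamycin over untreated (vertical), coloured by complex; the dotted line is the median of all measured genes. Cox6b2 and Ndufc2 are among the shorter genes, and Ndufs1, the lowest of complex I, is the longest member shown.

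Nuclear respiratory factors, ETS factors such as GABPA, YY1 and estrogen-related receptors are known to bind promoters of respiratory chain genes. Promoter sequences were found by symbol for 65 of the 80 measured members. A gene was counted when any of its promoter windows held the motif. The full NRF1 motif, the first run of capitals in the Cox6a1 promoter, was in 5 of them (7.69%). It was in 1.07% of the 27025 genes with a promoter sequence and 2.22% of the 10884 measured genes with one. The members holding it were Atp5g2, Atp5k, Cox6a1, Ndufa11 and Uqcrc1, whose ratios ran from −0.77 to 0.52. Its shorter core GCATGCGC, which every full motif contains, was in 15.4% of members, 3.05% of all genes with a promoter and 5.89% of such measured genes.

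The YY1 motif AAGATGGC was in 15.4% of members, 3.19% of all genes with a promoter and 4.99% of such measured genes. The ETS motif CCGGAAG was in 24.6%, 9.93% and 19.2%, and the estrogen-related receptor motif TCAAGGTCA in 3.08%, 0.466% and 0.331%. The TATA box TATAAA was in 7.69% of members, 15.7% of all genes with a promoter and 8.51% of such measured genes. CCAAT, added after seeing the data, was in 44.6%, 41.1% and 43.0%. The median ratio of members with and without a motif was 0.07 and −0.08 for NRF1, −0.06 and −0.08 for ETS, −0.13 and −0.05 for YY1, 0.07 and −0.08 for TATA and −0.04 and −0.09 for CCAAT. For the estrogen-related receptor motif, which 2 members held (Atp5g3 and Sdhd), it was −0.23 and −0.05, and for the NRF1 core 0.02 and −0.09. The middle 50% of the members spanned 0.39, a spread of single genes that does not tell whether these medians differ. Whether they differ was not tested. A match describes these letters in a window and does not show a bound site.

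Genes encoding the regulators of mitochondrial biogenesis had a wider spread than the subunits. Of 15 listed, 13 were measured, with a median of −0.94, which was −0.42 with no filter on level. Of these, 3 were higher by 2-fold or more and 4 were lower by as much, against 17.0% and 6.95% of all measured genes. The counts were 3 and 2 with total counts, where Pprc1 and Esrrb fell short of 2-fold, and 2 and 7 with upper-quartile factors. Nrf1, the factor named for respiratory chain promoters, had 4843 and 1887 reads, a ratio of −1.39 (−1.47 to −1.31). Hcfc1, a cofactor of several of these factors, had 39350 and 17751 reads, a ratio of −1.18. Pprc1, a coactivator of the PGC-1 family, had 8698 and 4289 reads (−1.05), and Gabpa, the ETS subunit, had 8858 and 4551 reads (−0.99). Esrrb, also among the stem cell markers, was the other gene past 2-fold on the lower side, at −1.06.

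On the higher side were Ppard, a nuclear receptor for fatty acids, with 2235 and 9760 reads (2.10), Perm1, a regulator known from muscle, with 14 and 99 reads (2.75), which passed the filter only through the Adriamycin library, and Esrra, the estrogen-related receptor of this pathway, with 1001 and 2216 reads (1.12). Ppargc1a, the best known coactivator of mitochondrial biogenesis, was under the filter with 2 and 7 reads.

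**Figure D5:**
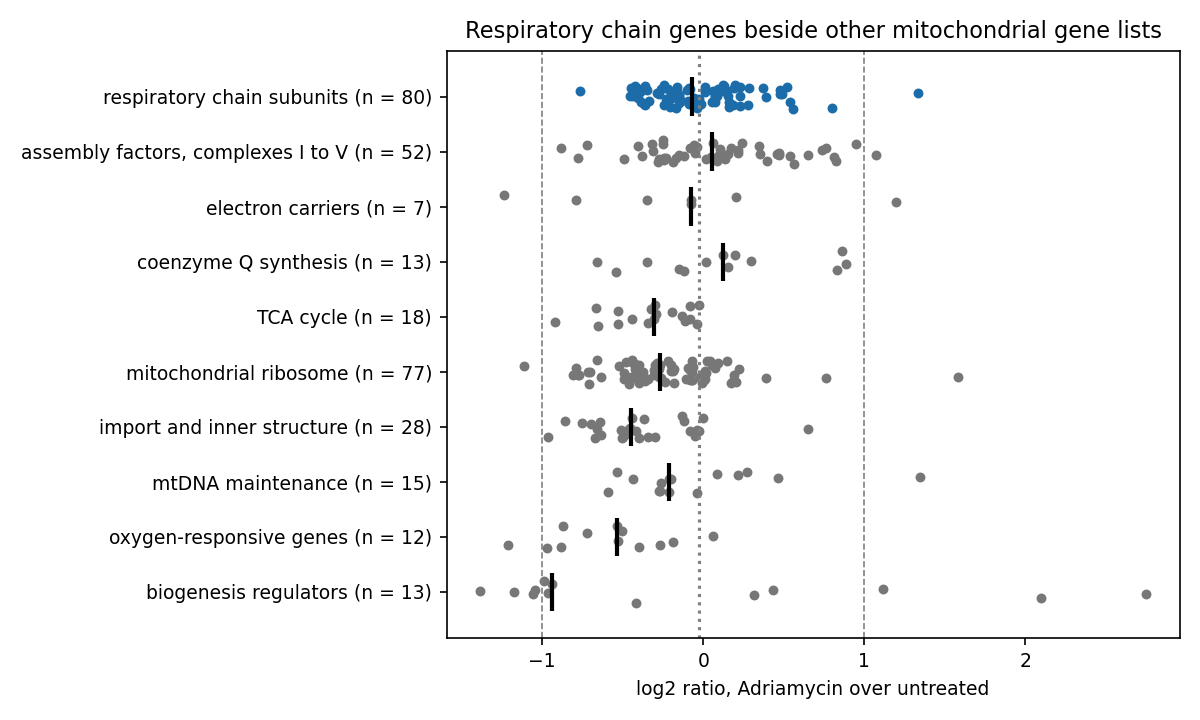
The top row holds the measured respiratory chain genes and each other row a related gene list, each point a measured gene with its log2 ratio, Adriamycin over untreated (horizontal axis), and each black bar the median of its row; the dotted line is the median of all measured genes and dashed lines are 2-fold. The respiratory chain genes and the assembly factors lie mostly between the dashed lines, and the regulators of biogenesis have a median of −0.94 with the filter of 1 CPM and −0.42 without it.

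Assembly factors of the other complexes, which build the subunits into the membrane, held 0 genes past 2-fold with TMM. For complex I, 15 of 15 in the tables were measured, with a median of −0.25. They ran from Ndufaf4 (−0.88) to Acad9 (0.81), and Ndufaf5 (−0.78) and Tmem126b (0.57) were the next named. For complex III, 6 of 6 had a median of 0.01, with Lyrm7, a chaperone of the Rieske protein, at 0.95 and Bcs1l, which inserts that protein, at −0.41. For complex IV, 22 of 25 had a median of 0.09, with Taco1, a translation activator, at 0.82, Coa3 at 0.65, Lrpprc, which stabilises mitochondrial mRNA, at −0.31, and Cox11 at −0.38. For complex V, 5 of 5 had a median of 0.13, with Tmem70 at 0.74 and Atpaf1 at 0.54.

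Electron carriers and side entries to the chain had 7 of 8 genes measured and a median of −0.08, which was 0.07 with total counts, −0.215 among genes of 5 CPM or more and −0.44 in the abundant band. Etfdh, which passes electrons from fatty acid oxidation to ubiquinone, had 1367 and 3189 reads, a ratio of 1.19. Gpd2, of the glycerol phosphate shuttle, had 6039 and 2607 reads, a ratio of −1.24, and Dhodh, of pyrimidine synthesis, had a ratio of −0.79. The routes into the ubiquinone pool thus had ratios on both sides of 0, beside complexes I and II at medians of −0.01 and −0.31. Coenzyme Q synthesis had 13 of 13 genes measured, a median of 0.12 and 0 past 2-fold, with Coq2 at 0.86, Coq4 at 0.83, Coq3 at −0.66 and Pdss1 at −0.54.

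Mitochondrial ribosomal proteins, which translate the mitochondrially encoded subunits, had 77 of 78 genes measured, a median of −0.27, and 56 below the median of all measured genes. Mrpl16 (909 and 2770 reads, 1.58) and Mrps18b (2045 and 963 reads, −1.11) were the genes past 2-fold, on opposite sides, though Mrps18b fell short with total counts (−0.97). Mrps6 (0.76) and Mrpl12 (−0.81) were the next named. Import and inner membrane structure genes had 28 measured and a median of −0.45, with 26 below the median of all measured genes and 0 past 2-fold. The lowest were Tomm70a, an import receptor, at −0.96 (past 2-fold with upper-quartile factors, at −1.08) and Vdac2, an outer membrane channel, at −0.86, and Apoo had a ratio of 0.65.

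Mitochondrial DNA maintenance and transcription had 15 of 15 genes measured and a median of −0.21. Top1mt, the mitochondrial topoisomerase, had 483 and 1252 reads, a ratio of 1.35, and was the 1 gene of this list past 2-fold. Mgme1 had a ratio of 0.46, Ssbp1 −0.53 and Polg, the mitochondrial DNA polymerase, −0.44. The oxygen-responsive list had 12 of 12 measured and a median of −0.53, with Bnip3, a mitophagy receptor, at −1.21 and Slc2a1, a glucose transporter, at −0.97. It includes 2 respiratory chain members, Cox4i2 and Ndufa4l2, whose ratios of −0.40 and 0.06 were given above.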

How the data were processed

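RNA-seq reads of 1 untreated and 1 Adriamycin library were counted per gene by the authors. Per the file headers, the deposited raw counts came from featureCounts 2.0.3 with Ensembl release 105 gene models of GRCm39, on read pairs with both mates mapped and without a strand setting. Other builds (mm9, mm10) and another featureCounts version (1.6.0) stand in the submitters' processing notes, which also list HISAT2 2.0.4 and DESeq2 1.16.1, and trimming by Trim Galore 0.3.4. Counts of 2 were more frequent than counts of 1 (2067 against 1629 genes untreated, 2266 against 1719 with Adriamycin).

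Symbols came from the GENCODE M21 names for 52081 of 55414 identifiers. Libraries were scaled by TMM (edgeR 4.0.16) over the whole table. Before log2 ratios were taken, 0.5 read, scaled to library size, was added to each count, and genes averaging 1 CPM or more were kept. A gene was called at a 2-fold difference. TPM were computed from the deposited counts and lengths. Near-identical copies were matches of at least 90% identity over at least 100 bases (BLAST 2.17.0), between the coding sequence of a member's principal transcript and GENCODE M21 transcripts of other genes.

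With 1 library for each condition no test was run. The scaling, ratio and interval steps were tested on simulated counts with known fold changes. Those counts were drawn as independent reads, not as pairs of mates, and the filter and fold calls were not part of it. The members and lists were chosen with earlier results of these data known. Genes were named by rule: in each complex the 2 most abundant, the 3 highest and the 3 lowest ratios, every isoform and every gene past 2-fold, and in each list the 2 on either side of 0 whose intervals lay farthest from it. All other genes named were chosen after their values were seen. Not every member is reported here by name. Alternatives were other scalings, filters, pseudocount and fold, and leaving out members with copies or overlaps.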

Additional observations from a re-analysis of the deposited data

How the results depend on the processing

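The median log2 ratio of all members was −0.07 as reported, 0.075 when scaled by total counts and −0.19 by upper-quartile factors, which move all genes alike. Members at least 2-fold higher numbered 1 as reported, 3 with no filter and 2 at 1.5-fold, and members lower numbered 0, 1 and 1. The median of the members minus that of all genes was −0.04 as reported, −0.15 with no filter, 0.036 at 5 CPM or more and 0.14 at 25 CPM or more. The median of complex III minus that of all members was 0.06, −0.17 without members that have a near-identical copy and 0.14 without members whose exons overlap another gene. The same value for complex IV was 0.25, and 0.39 without members that have a copy. The band of 25 CPM, the run without processed pseudogenes and the CCAAT motif were chosen after seeing the data. Of the list genes past 2-fold, Pprc1 (−0.90), Esrrb (−0.91), Mrps18b (−0.97), Utf1 (−0.995), Tdgf1 (−0.88) and Tnni3 (−0.90) fell short with total counts, and Esrra (0.996) and Sdhaf1 (0.95) with upper-quartile factors. Lyrm7 (1.09), Coq2 (1.01), Coq10a (1.03) and Ttn (1.10) passed only with total counts, and Gabpa (−1.11), Myc (−1.08), Ppargc1b (−1.06), Slc2a1 (−1.09), Egln3 (−1.004), Ndufaf4 (−1.004), Tomm70a (−1.08) and Pdha1 (−1.04) only with upper-quartile factors. Complexes II and V stayed below, and complexes I and IV above, the median of all members in each alternative run. No paired analysis was possible because each condition had 1 library, and for the same reason no replicate could be left out. Scalings of the mitochondrially encoded median were not run, since those genes were listed at 0. Members under about 1000 reads have wide counting intervals, so their ratios are the least certain.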
